A study of Sus scrofa with 9 samples.

Results

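The genes described here are 10 members of the heat shock protein and cochaperone families: HSPA8, HSPH1, DNAJB1, DNAJA1, HSPB1, HSP90AA1, HSP90AB1, CHORDC1, HSPD1 and HSPE1. They were chosen by name, as the table positions whose RefSeq accession belongs to these pig gene symbols, out of 3890 genes in the table. The choice was made with earlier results of these data known. The shares over all positions given beside their counts are therefore for description only. Where a gene has several positions, the one with the longest span stands for it. Their nascent transcription was read in hearts of 3 female farm pigs in which an embolization coil had blocked the distal LAD, the coronary artery of the front wall of the left ventricle, for 24 hours. Each pig gave a sample of ischemic myocardium, a sample of the border zone and a sample of healthy myocardium, so that each zone is represented by 3 animals. All 3 zones therefore come from operated hearts, and the healthy samples are not from pigs without an occlusion. The tissue was cut up and digested with collagenase, nuclei were taken from it, and RNA polymerases already on the genes were allowed to extend their RNA with a tagged nucleotide before sequencing (GRO-seq). The values thus describe transcription in progress and not the amount of stored mRNA or protein.

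Heat shock proteins are chaperones, which bind unfolded or damaged proteins and help them to fold. Many of their genes are activated by the transcription factor HSF1, which is held inactive by chaperones and released when unfolded proteins accumulate. HSP70 proteins work in cycles driven by HSP40 (DNAJ) cochaperones, which deliver clients, and by HSP110 proteins, which exchange the nucleotide, while HSP90 acts later on clients such as kinases and receptors, and the HSP60 and HSP10 pair folds proteins inside mitochondria.

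In ischemic myocardium, 5 of the 10 genes were called higher than in healthy myocardium, against 18.5% of all 2384 positions tested, and 4 of the 9 were without HSPH1. HSPH1, the HSP110 nucleotide exchange factor, had a mean 6.12 times that of healthy myocardium, but it passed the minimum level for testing only through its ischemic libraries. DNAJB1, the main stress-inducible HSP40, had a mean 3.14 times that of healthy myocardium, followed by DNAJA1, another HSP40, at 2.44 times, HSP90AB1, the constitutive cytosolic HSP90, at 2.27 times, and HSPD1, the mitochondrial HSP60, at 1.97 times. None of the 10 was called lower, against 9.1% of all positions. The call for DNAJB1 held under 18 of 19 other settings and that for HSPH1 under 17 of 18, whereas DNAJA1 kept its call under 9 of 19, HSPD1 under 8 of 19 and HSP90AB1 under 7 of 19. Each of these counts includes the setting that picks another position per gene. These 5 genes have no other position, so that setting repeats the main fit and had to hold.

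Levels are given in RPKM, the reads on a gene divided by the length of its annotated span and by the depth of its library. The span includes introns, since GRO-seq reads fall there too. Differences were tested with limma on log2(RPKM + 0.1) over 2384 positions, those averaging 0.5 RPKM or more. Each log2 fold change is given with its standard error (SE) from the fit, with 3 libraries a zone. This SE rests on a spread shared by all 3 zones, which limma draws toward that of positions of similar level. It is the same in each comparison, and border zone libraries thus bear on ischemic against healthy too. The adjusted p is the 2-sided limma p-value with Benjamini-Hochberg adjustment over those 2384 positions, and a change is called at an adjusted p under 0.05. Over all positions tested, the median log2 fold change was 0.21 in ischemic and 0.22 in border zone tissue, each against healthy, and −0.04 in ischemic against border zone tissue, so that the values below are best read against these shifts.

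The ischemic libraries were the shallowest, with 883656 to 2134087 reads, against 2187977 to 7005976 in the border zone and 2730083 to 6531658 in healthy myocardium. Summed levels of cell type markers also differed between the zones. Over 13 of 20 listed cardiomyocyte markers found in the table, the summed level was 89.4 to 258 RPKM in ischemic, 201 to 329 RPKM in border zone and 391 to 655 RPKM in healthy libraries. Over 7 of 13 neutrophil markers, it was 14.1 to 30.5 RPKM in ischemic, 5.28 to 10.9 RPKM in border zone and 0.0995 to 0.323 RPKM in healthy libraries, where S100A8, S100A9, S100A12, MMP9 and FCAR had no read. FCAR had none in the other zones either. Over 8 of 14 macrophage markers, it was 23.5 to 28.7 RPKM in ischemic, 8.70 to 20.0 RPKM in border zone and 1.33 to 3.44 RPKM in healthy libraries. Ischemic libraries also lay above healthy ones, with no overlap, in the summed levels of 13 of 14 lymphocyte markers (5.32 to 8.17 RPKM in ischemic, 3.74 to 9.89 RPKM in border zone and 1.74 to 3.69 RPKM in healthy libraries), of 4 of 10 endothelial markers (8.55 to 11.8, 5.62 to 7.65 and 4.61 to 5.67 RPKM in the same zones) and of 2 of 5 erythroid markers (21.5 to 68.9, 2.88 to 11.9 and 6.19 to 17.5 RPKM). The summed level of 6 of 8 smooth muscle markers was 25.2 to 42.1 RPKM in ischemic, 43.3 to 55.6 RPKM in border zone and 44.2 to 51.2 RPKM in healthy libraries. Of these, DES alone had a mean of 30.0 RPKM in ischemic, 45.1 in border zone and 42.0 in healthy libraries. The sum thus mostly follows DES and does not by itself describe smooth muscle cells. Means of TAGLN were 2.75, 1.57 and 0.991 RPKM, and those of MYOCD 0.240, 1.63 and 3.19 RPKM, in the same zones. HBB had 42.2, 4.52 and 7.36 RPKM in the same zones and was the larger part of the erythroid sum by mean. For ischemic against healthy, the log2 fold change was above 0 in 2 of 4 tested smooth muscle and 1 of 2 erythroid markers. Among the 13 cardiomyocyte markers it was above 0 in 2, NPPA and NPPB. Positions of ribosomal RNA held 2.00 to 4.39% of the reads in ischemic, 0.733 to 1.62% in border zone and 0.621 to 2.24% in healthy libraries. The part of the markers, ribosomal RNA and depth in the changes of the heat shock genes was not tested. In tissue samples such as these, a change in the number of cells of a type and a change in transcription per cell cannot be told apart.

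**Figure D1:**
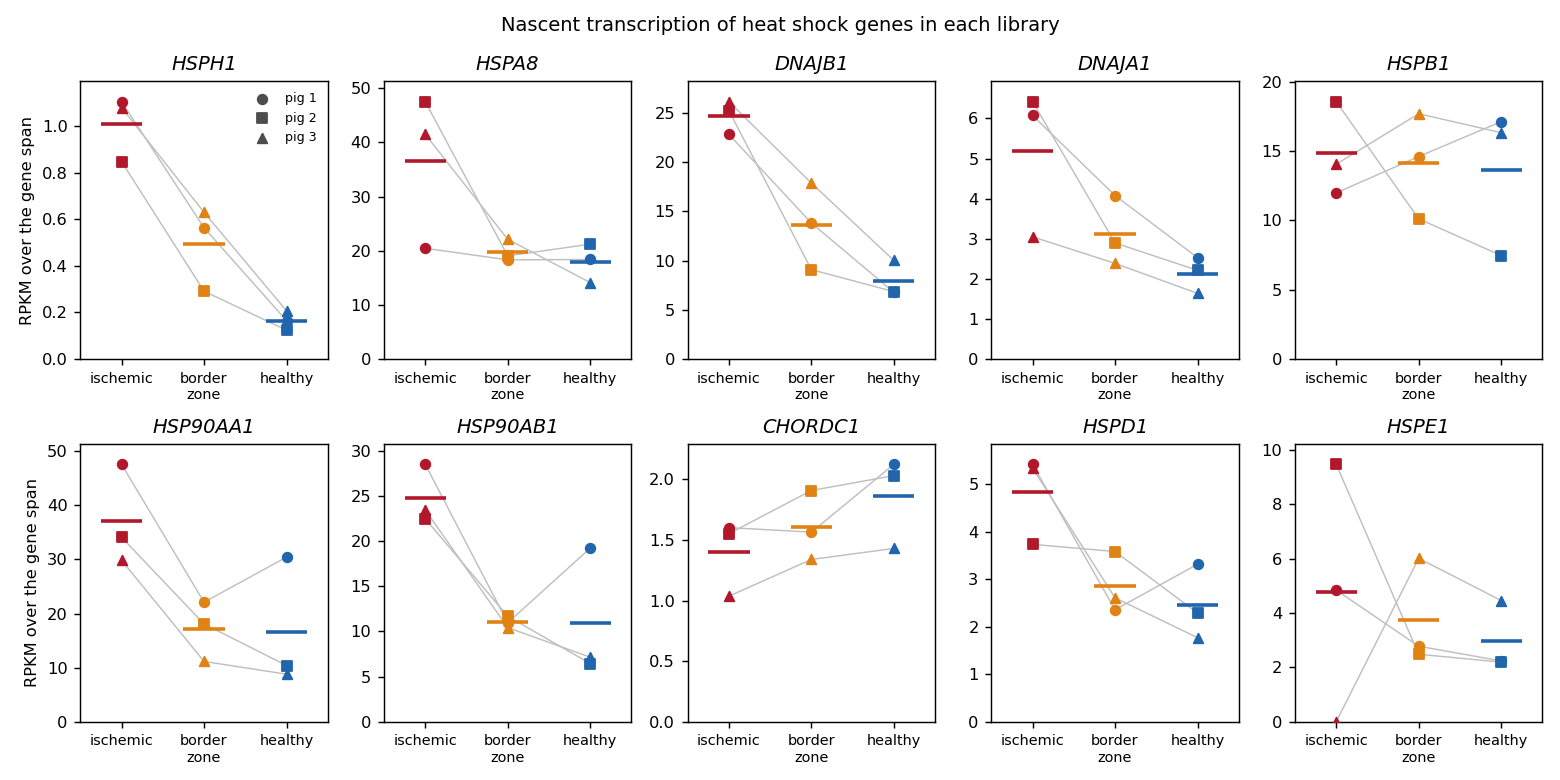
Level of each of the 10 heat shock genes in RPKM over the gene span (vertical axes, each starting at 0) in ischemic, border zone and healthy myocardium. Symbols are single libraries, grey lines join the 3 zones of a pig and thick bars are means of 3 libraries. HSPH1, DNAJB1 and DNAJA1 step down from ischemic through border zone to healthy in each pig, and HSP90AA1 and HSP90AB1 have 1 high healthy library, that of pig 1.

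Of the 10 genes, the HSP70 system comprises an HSP70, a nucleotide exchange factor and a pair of HSP40 genes. HSPH1 lies on chromosome 11 from 7585525 to 7661067 on the minus strand (NM_001097504, build susScr3, as for all coordinates here). It stood at 1.10, 0.847 and 1.08 RPKM in ischemic libraries of pigs 1, 2 and 3, at 0.563, 0.291 and 0.629 RPKM in border zone libraries, and at 0.165, 0.124 and 0.207 RPKM in healthy libraries. These values rest on 72 to 178 reads in ischemic, 104 to 154 reads in border zone and 32 to 102 reads in healthy libraries. The 3 zones did not overlap, and every pig had its highest level in ischemic and its lowest in healthy tissue. Ischemic against healthy, the log2 fold change was 2.07 ± 0.39 (SE, n = 3 a zone, limma adjusted p = 0.00706). HSPH1 is the least transcribed of the 10 per length and passed the minimum mean through its ischemic level of 1.01 ± 0.14 RPKM, against 0.494 ± 0.179 RPKM in border zone and 0.165 ± 0.0415 RPKM in healthy libraries (SD, n = 3 each). It is the only one of the 10 with a group mean under 0.5 RPKM.

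DNAJB1, whose protein recruits HSP70 to clients and is strongly induced by heat in human and mouse cells, lies on chromosome 2 from 65177577 to 65180388 on the minus strand (NM_001244430). It stood at 22.8, 25.3 and 26.2 RPKM in ischemic libraries of pigs 1 to 3, at 13.8, 9.09 and 17.9 RPKM in border zone libraries, and at 6.78, 6.85 and 10.0 RPKM in healthy libraries. The ischemic libraries lay close together and above all others, and each pig had the order ischemic, border zone, healthy from high to low. The border zone and healthy libraries overlapped between 9.09 RPKM in the border zone of pig 2 and 10.0 RPKM in healthy tissue of pig 3. Its log2 fold change of ischemic against healthy came to 1.66 ± 0.30 (SE, n = 3 a zone, limma adjusted p = 0.00606).

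DNAJA1, an HSP40 that also serves HSP70 in the import of proteins into mitochondria, lies on chromosome 10 from 37687721 to 37699598 on the minus strand (NM_001244163). It stood at 6.08, 6.42 and 3.05 RPKM in ischemic libraries of pigs 1 to 3, at 4.08, 2.90 and 2.39 RPKM in border zone libraries, and at 2.53, 2.21 and 1.64 RPKM in healthy libraries. The ischemic library of pig 3 was less than the border zone library of pig 1, but within each pig the order was again ischemic, border zone, healthy from high to low. Ischemic and healthy libraries did not overlap. The fitted difference of ischemic against healthy was a log2 fold change of 1.20 ± 0.35 (SE, n = 3 a zone, limma adjusted p = 0.0353). This call depended on single libraries: limma gave an adjusted p of 0.0999 without ischemic pig 1, 0.0797 without ischemic pig 2, 0.054 without border zone pig 2, and 0.0532, 0.084 and 0.11 without healthy pig 1, 2 or 3.

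HSPA8, the constitutive HSP70 that carries most housekeeping folding and clathrin uncoating, lies on chromosome 9 from 55405395 to 55409839 on the plus strand (NM_001243907). It stood at 20.5, 47.5 and 41.5 RPKM in ischemic libraries of pigs 1 to 3, at 18.3, 19.0 and 22.1 RPKM in border zone libraries, and at 18.4, 21.2 and 14.1 RPKM in healthy libraries. Ischemic tissue of pigs 2 and 3 was above all other libraries, while that of pig 1 lay inside the healthy range. Between ischemic and healthy libraries the log2 fold change was 0.95 ± 0.35 and was not called (SE, n = 3 a zone, limma adjusted p = 0.0732). Without ischemic pig 1 it was 1.33 (limma adjusted p = 0.0192), and limma-voom on whole reads also called it (adjusted p = 0.0282). In human and mouse, introns of this gene hold small nucleolar RNA genes, whose reads would count here as HSPA8.

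HSPB1 is the small heat shock protein HSP27, which holds unfolded proteins and binds actin in muscle. It has 2 positions with the same span of 1368 bases on chromosome 3, on the minus strand, from 10049417 to 10050785 and from 9925991 to 9927359 (NM_001007518). At the first, it stood at 11.99, 18.6 and 14.1 RPKM in ischemic libraries of pigs 1 to 3, at 14.6, 10.1 and 17.7 RPKM in border zone libraries, and at 17.1, 7.47 and 16.3 RPKM in healthy libraries. The 3 zones overlapped and no zone was highest in all pigs. The log2 fold change of ischemic against healthy was 0.19 ± 0.38 (SE, n = 3 a zone, limma adjusted p = 0.74), close to the median of all positions, and it was −0.02 with libraries scaled to the same median and −0.42 after quantile normalization. At the second position, the ischemic libraries had 13.0, 16.0 and 13.2 RPKM, border zone libraries 14.6, 10.1 and 18.4 RPKM and healthy libraries 13.1, 9.17 and 13.5 RPKM, with a log2 fold change of 0.25 ± 0.29 for ischemic against healthy (SE, n = 3 a zone, limma adjusted p = 0.549). No source used here says how the authors counted reads that match both copies.

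The cytosolic HSP90 genes and a cochaperone made up the next group. HSP90AB1 lies on chromosome 7 from 45113231 to 45119936 on the plus strand (NM_001244433). It stood at 28.5, 22.5 and 23.5 RPKM in ischemic libraries of pigs 1 to 3, at 11.0, 11.7 and 10.4 RPKM in border zone libraries, and at 19.2, 6.44 and 7.15 RPKM in healthy libraries. All ischemic libraries exceeded all others, the border zone libraries were nearly equal, and the healthy library of pig 1 stood well above the other healthy libraries. Ischemic against healthy, the log2 fold change was 1.35 ± 0.40 (SE, n = 3 a zone, limma adjusted p = 0.0375). It was 1.85 without healthy pig 1 (limma adjusted p = 0.00412). Leaving out any other single library ended the call, with a limma adjusted p of 0.101, 0.0565 and 0.0776 without ischemic pig 1, 2 or 3, of 0.0579, 0.057 and 0.0573 without border zone pig 1, 2 or 3, and of 0.12 and 0.113 without healthy pig 2 or 3.

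HSP90AA1, the stress-inducible cytosolic HSP90, is listed on chromosome 7 from 129759025 to 129760542 on the plus strand (NM_213973), a span of 1517 bases. It stood at 47.6, 34.1 and 29.8 RPKM in ischemic libraries of pigs 1 to 3, at 22.1, 18.1 and 11.1 RPKM in border zone libraries, and at 30.4, 10.4 and 8.78 RPKM in healthy libraries. Ischemic and healthy libraries overlapped only through the healthy library of pig 1, which lay just above the ischemic library of pig 3. Each pig had its highest level in ischemic tissue. Its log2 fold change of ischemic against healthy came to 1.37 ± 0.49 and was not called (SE, n = 3 a zone, limma adjusted p = 0.0717). It was called with the pig as a block (limma adjusted p = 0.0198), in limma-voom on whole reads (adjusted p = 0.00945) and without healthy pig 1, where it was 1.92 (limma adjusted p = 0.0128).

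CHORDC1, a zinc-binding HSP90 cochaperone also called morgana, lies on chromosome 9 from 26044315 to 26060702 on the plus strand (NM_001113446). It stood at 1.60, 1.55 and 1.04 RPKM in ischemic libraries of pigs 1 to 3, at 1.56, 1.91 and 1.34 RPKM in border zone libraries, and at 2.12, 2.03 and 1.43 RPKM in healthy libraries. Each pig had a lower level in ischemic than in healthy tissue, but the zones overlapped across pigs. The fitted difference of ischemic against healthy was a log2 fold change of −0.39 ± 0.25 and was not called (SE, n = 3 a zone, limma adjusted p = 0.283). Another position of the same accession, of 479 bases on the minus strand of the same chromosome from 25967557 to 25968036, pointed the other way on 3 to 12 reads a library, with 8.80, 5.49 and 7.09 RPKM in ischemic, 5.88, 3.58 and 9.54 RPKM in border zone and 3.06, 4.27 and 1.92 RPKM in healthy libraries. Its log2 fold change of ischemic against healthy was 1.23 ± 0.42 (SE, n = 3 a zone, limma adjusted p = 0.0597).

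The mitochondrial pair HSPD1 and HSPE1 encodes the folding chamber HSP60 and its lid HSP10. The genes lie head to head on chromosome 15, HSPD1 from 112534459 to 112547603 on the minus strand (NM_001254716) and HSPE1 from 112548122 to 112550249 on the plus strand (NM_214307), with 518 bases between them. HSPD1 stood at 5.42, 3.73 and 5.34 RPKM in ischemic libraries of pigs 1 to 3, at 2.36, 3.58 and 2.61 RPKM in border zone libraries, and at 3.32, 2.29 and 1.77 RPKM in healthy libraries. The ischemic libraries lay above all others, by a small margin in pig 2, and the border zone and healthy libraries overlapped. Between ischemic and healthy libraries the log2 fold change was 0.97 ± 0.30 (SE, n = 3 a zone, limma adjusted p = 0.0413), and with the pig as a block it was no longer called (limma adjusted p = 0.0564). The call was also lost, with a limma adjusted p of 0.108 and 0.1 without ischemic pig 1 or 3, of 0.0557 and 0.0604 without border zone pig 1 or 3, and of 0.109 and 0.127 without healthy pig 2 or 3.

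HSPE1 stood at 4.85, 9.48 and 0 RPKM in ischemic libraries of pigs 1 to 3, at 2.78, 2.48 and 6.02 RPKM in border zone libraries, and at 2.24, 2.20 and 4.46 RPKM in healthy libraries. The ischemic values rest on 22, 23 and 0 reads, and in the shallow library of pig 3 a count of 0 allows up to 1.60 RPKM (3 reads), which covers counting error only. Pigs 1 and 2 thus had more in ischemic than in healthy tissue, and pig 3 had less. The log2 fold change of ischemic against healthy was −0.79 ± 1.51 (SE, n = 3 a zone, limma adjusted p = 0.729). Without ischemic pig 3 it was 1.24 (limma adjusted p = 0.122), so that its direction rested on that library.

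**Figure D2:**
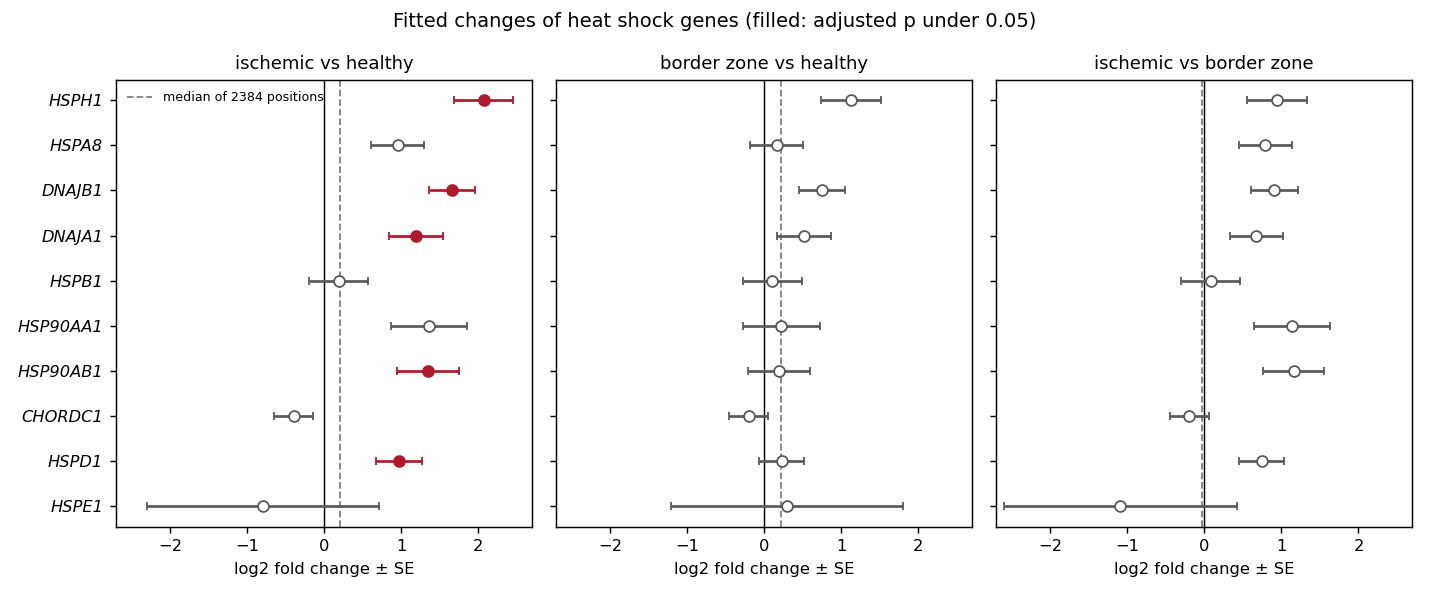
Fitted log2 fold change ± SE (horizontal axes) of the 10 heat shock genes in ischemic and in border zone tissue, each against healthy, and in ischemic against border zone tissue. Filled points have an adjusted p under 0.05, which holds for 5 genes in the first comparison and for none in the others, and dashed lines mark the median of 2384 positions.

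For ischemic against healthy, then, DNAJA1, DNAJB1, HSP90AB1, HSPD1 and HSPH1 were called higher, 5 of the 10 genes, against 18.5% of all positions tested. No gene of the 10 was called lower, against 9.1% of all positions, and 27.6% of all positions were called in either direction. The median log2 fold change of the 10 was 1.08, against 0.21 over all positions. Of the 9 genes with a mean of at least 0.5 RPKM in every zone, 4 were called higher. In 5 of the 10, the same 5, the ischemic libraries did not overlap with the healthy ones and were higher, against 28.4% of all positions, and in none were they all lower, against 14.9%. An unadjusted p under 0.05 was found for 7 of the 10, against 965 of all 2384 positions. The call count was 2 without healthy pig 2 or 3, and 3 without any single ischemic or border zone library. It was also 2 with libraries scaled to the same median, and 0 after quantile normalization, where DNAJB1 had a limma adjusted p of 0.0656 and HSPH1 one of 0.0724.

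In the border zone against healthy myocardium, limma called 0 of the 10 genes in either direction, against 5.79% of all positions called higher and 0.21% called lower. Their median log2 fold change was 0.23, against 0.22 over all positions. HSPH1 had the largest fitted difference of the 10, at 1.13 ± 0.39 (SE, n = 3 a zone, limma adjusted p = 0.14), and was the 1 gene of the 10 whose zones did not overlap, against 25.7% of all positions with a higher and 6.71% with a lower border zone. DNAJB1 was next, at 0.75 ± 0.30 (SE, n = 3 a zone, limma adjusted p = 0.196). An unadjusted p under 0.05 was found for 2 of the 10, against 510 of all 2384 positions, a like share, and limma-voom on whole reads called 1, HSPH1 (adjusted p = 0.0195). DNAJA1 had a log2 fold change of 0.52, and the other 7 lay between −0.20 for CHORDC1 and 0.30 for HSPE1.

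Between ischemic and border zone myocardium, limma again called 0 of the 10, against 0.168% of all positions called higher and 0.965% called lower. The median log2 fold change of the 10 was 0.77, against −0.04 over all positions. In DNAJB1, HSP90AA1, HSP90AB1, HSPD1 and HSPH1, 5 of the 10, every ischemic library exceeded every border zone library, against 8.56% of all positions, and in none was every ischemic library lower, against 11.5%. HSPH1 passed the minimum level for testing only through its ischemic libraries. Among the 9 other genes, every ischemic library was higher in DNAJB1, HSP90AA1, HSP90AB1 and HSPD1. HSP90AB1 had the largest fitted difference, at 1.16 ± 0.40 (SE, n = 3 a zone, limma adjusted p = 0.214), and HSP90AA1 was close to it at 1.14 ± 0.49 (SE, n = 3 a zone, limma adjusted p = 0.318). An unadjusted p under 0.05 was found for 5 of the 10, against 373 of all 2384 positions, and limma-voom called 1, HSPH1 (adjusted p = 0.0447). The order ischemic over border zone over healthy held within each of the 3 pigs for 3 of the 10 genes, DNAJA1, DNAJB1 and HSPH1, against 11.6% of all positions. Among the 9 genes other than HSPH1 it held for DNAJA1 and DNAJB1. The 3 comparisons share libraries and are not independent of each other.

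Set in order of level, HSP90AA1 led in ischemic libraries with 37.2 ± 9.26 RPKM, ahead of HSPA8 with 36.5 ± 14.2, HSP90AB1 with 24.8 ± 3.24, DNAJB1 with 24.8 ± 1.72 and HSPB1 with 14.9 ± 3.37 RPKM (SD, n = 3 each). The lower part of the order held DNAJA1 with 5.18 ± 1.85, HSPD1 with 4.83 ± 0.95, CHORDC1 with 1.40 ± 0.31 and HSPH1 with 1.01 ± 0.14 RPKM (SD, n = 3 each), with HSPE1 at 0 to 9.48 RPKM among them. Among neighbours in this order, HSP90AA1 and HSPA8 did not differ beyond their spread, and neither did HSPA8 and HSP90AB1, HSP90AB1 and DNAJB1, nor DNAJA1 and HSPD1. CHORDC1 and HSPH1 did not either, and the range of HSPE1 covered those of its neighbours. In the border zone, HSPA8 came first with 19.8 ± 2.01 RPKM, followed by HSP90AA1 with 17.1 ± 5.54, HSPB1 with 14.1 ± 3.81, DNAJB1 with 13.6 ± 4.40 and HSP90AB1 with 11.0 ± 0.63 RPKM (SD, n = 3 each). In healthy libraries, HSPA8 had 17.9 ± 3.57, HSP90AA1 16.5 ± 12.1, HSPB1 13.6 ± 5.37, HSP90AB1 10.9 ± 7.19 and DNAJB1 7.88 ± 1.85 RPKM (SD, n = 3 each). In both of these zones the neighbours in the order lay within each other's spread, and HSPB1 stood ahead of DNAJB1 and HSP90AB1, whereas in ischemic tissue it stood behind both. The healthy library of pig 1 held the highest healthy level for 6 of the 10 genes. The order between genes depends on the annotated spans, such as 1517 bases for HSP90AA1 and 75542 bases for HSPH1. Over the ischemic libraries together, HSPH1 had 323 reads and DNAJB1 had 283.

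Ratios within a library compare partners, HSPH1 with HSPA8 and HSPD1 with HSPE1, or members of a family, DNAJB1 with DNAJA1 and HSP90AA1 with HSP90AB1. The log2 ratio of HSPH1 to HSPA8 was −4.21, −5.81 and −5.27 in ischemic libraries of pigs 1 to 3, −5.02, −6.03 and −5.14 in border zone libraries, and −6.80, −7.42 and −6.09 in healthy libraries. In all 3 pigs the exchange factor was thus higher relative to HSP70 in ischemic than in healthy tissue, by 1.68 on average (exact 2-sided permutation p = 0.1), and in the border zone than in healthy tissue, by 1.38 (exact 2-sided permutation p = 0.1). With 3 libraries a zone, 0.1 is the smallest p this test can give, and adjusted over the 10 ratio tests it was 0.5 for both.

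The log2 ratio of DNAJB1 to DNAJA1 was 1.91, 1.98 and 3.10 in ischemic libraries of pigs 1 to 3, 1.76, 1.65 and 2.91 in border zone libraries, and 1.42, 1.63 and 2.61 in healthy libraries. It was higher in ischemic than in healthy tissue in 3 of 3 pigs, by 0.34 to 0.49 within a pig, and the zones overlapped across pigs. The mean difference was 0.44 (exact 2-sided permutation p = 0.5), in a test that ignores the pig and cannot give a p under 0.1. The log2 ratio of HSP90AA1 to HSP90AB1 was 0.74, 0.60 and 0.35 in ischemic, 1.01, 0.63 and 0.10 in border zone and 0.66, 0.69 and 0.30 in healthy libraries. Its mean differed by 0.01 between ischemic and healthy libraries (exact 2-sided permutation p = 1.0).

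For HSPD1 to HSPE1, the log2 ratio was 0.16 and −1.34 in ischemic libraries of pigs 1 and 2, and has no value in that of pig 3. It was −0.24, 0.53 and −1.21 in border zone libraries and 0.57, 0.06 and −1.33 in healthy libraries. The border zone and healthy libraries differed by −0.07 (exact 2-sided permutation p = 0.9), and the ischemic libraries were not tested with 2 values.

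**Figure D3:**
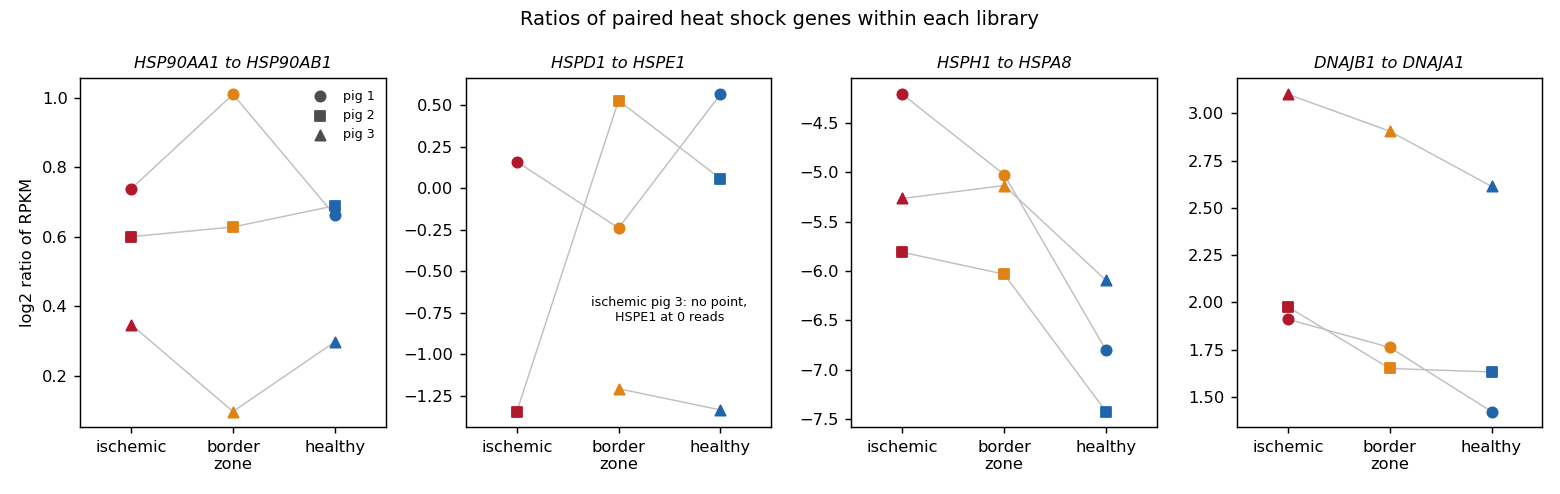
Log2 ratio of RPKM within each library (vertical axes) for 4 pairs of heat shock genes in ischemic, border zone and healthy myocardium. Symbols are libraries and lines join the zones of a pig. Pig 3 has the highest DNAJB1 to DNAJA1 ratio in each zone, and the healthy HSPH1 to HSPA8 ratios all lie under the ischemic and border zone ones.

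Other genes of the chaperone network were read from lists of partners, most of which could not be tested. Tested were 10 of 51 listed for HSP70 and HSP90, 0 of 9 small heat shock proteins and 4 of 17 mitochondrial genes. The rest were 7 of 14 CCT and prefoldin, 2 of 8 HSF and ubiquitin and 4 of 8 endoplasmic reticulum genes. HSPA1A, HSPA1B, BAG3, CRYAB, HSPA5, HSPA9 and STIP1 are among those not in the table, so the tested genes do not stand for the whole network. Of 27 of them that were tested, 4 were called higher and 2 lower for ischemic against healthy, against 18.5% and 9.1% of all positions, with a median log2 fold change of 0.27 against 0.21. These counts and the median are near those of all positions. Among 10 cochaperones of HSP70 and HSP90, 2 were called higher, a share near the 18.5% of all positions. FKBP4, an HSP90 immunophilin of steroid receptors, stood at 3.74, 2.53 and 2.67 RPKM in ischemic, 2.10, 1.63 and 1.02 RPKM in border zone and 1.73, 1.03 and 0.943 RPKM in healthy libraries, with a log2 fold change of 1.23 ± 0.33 for ischemic against healthy (SE, n = 3 a zone, limma adjusted p = 0.0268). NUDC, an HSP90 cochaperone named for its role in nuclear movement in fungi, stood at 2.00, 2.10 and 1.70 RPKM in ischemic, 1.29, 1.10 and 1.06 RPKM in border zone and 1.12, 1.36 and 1.12 RPKM in healthy libraries, with a log2 fold change of 0.64 ± 0.19 for ischemic against healthy (SE, n = 3 a zone, limma adjusted p = 0.0353). In both genes all ischemic libraries lay above all others. Without ischemic pig 1 or 3, or healthy pig 2 or 3, FKBP4 had a limma adjusted p of 0.0801, 0.0522, 0.0862 or 0.0856. NUDC had one of 0.0823 or 0.0671 without ischemic pig 1 or 2, of 0.054 without border zone pig 2, and of 0.0913, 0.0622 or 0.103 without healthy pig 1, 2 or 3. Its call was also lost with libraries scaled to the same median (0.129), after quantile normalization (0.18), in limma-voom (0.0851) and with only the 2 zones compared (0.0746), so that it held under 8 of 18 other settings.

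The 2 that fell were UNC45B and DNAJA4. UNC45B, the HSP90 cochaperone that folds myosin in striated muscle, stood at 0.288, 0.308 and 0.298 RPKM in ischemic, 1.19, 1.32 and 1.02 RPKM in border zone and 1.33, 1.11 and 2.19 RPKM in healthy libraries. Its ischemic libraries were nearly equal and far below the others, with a log2 fold change of −1.99 ± 0.27 for ischemic against healthy (SE, n = 3 a zone, limma adjusted p = 0.00219). DNAJA4, an HSP40 with high levels in muscle, stood at 0.902, 1.09 and 2.18 RPKM in ischemic, 1.26, 2.51 and 1.82 RPKM in border zone and 3.27, 3.35 and 3.73 RPKM in healthy libraries. Its log2 fold change was −1.35 ± 0.35 for ischemic against healthy (SE, n = 3 a zone, limma adjusted p = 0.0248). It had a limma adjusted p of 0.0752 or 0.0546 without ischemic pig 1 or 2, and of 0.0546, 0.0677 or 0.0724 without healthy pig 1, 2 or 3. The summed cardiomyocyte markers were lower in ischemic libraries too, as given above, and their part in these falls was not tested. UNC45B was also called lower in ischemic than in border zone myocardium, at −1.67 ± 0.27 (SE, n = 3 a zone, limma adjusted p = 0.0437). That call held in 4 of 18 other settings and was lost with the pig as a block (limma adjusted p = 0.0608).

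Chaperones of the endoplasmic reticulum had 2 of 4 genes called higher for ischemic against healthy, against 18.5% of all positions. SERPINH1, the collagen chaperone HSP47, stood at 6.95, 8.14 and 8.88 RPKM in ischemic, 4.18, 3.57 and 2.45 RPKM in border zone and 2.14, 2.91 and 3.91 RPKM in healthy libraries. Its ischemic libraries lay above all others, with a log2 fold change of 1.42 ± 0.29 for ischemic against healthy (SE, n = 3 a zone, limma adjusted p = 0.0108). HSP90B1, the HSP90 of this compartment, stood at 2.92, 2.56 and 3.02 RPKM in ischemic, 1.81, 1.78 and 1.79 RPKM in border zone and 1.85, 1.19 and 1.39 RPKM in healthy libraries, with a log2 fold change of 0.91 ± 0.20 for ischemic against healthy (SE, n = 3 a zone, limma adjusted p = 0.0141). Its ischemic libraries again exceeded all others. HSP90B1 had a limma adjusted p of 0.0542 without healthy pig 2. The summed level of 6 of 11 fibroblast and matrix markers was 16.5 to 20.3 RPKM in ischemic, 12.4 to 15.2 RPKM in border zone and 8.85 to 11.98 RPKM in healthy libraries. Their log2 fold change of ischemic against healthy was above 0 in 4 and below 0 in 2, DCN and LUM. The part of these markers in the changes of SERPINH1 and HSP90B1 was not tested.

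None of 7 tested subunits of the CCT chaperonin and of prefoldin was called for ischemic against healthy, and their median log2 fold change was 0.29. None of 4 further mitochondrial chaperones and proteases was called either, the farthest from 0 being DNAJC19, a subunit of the import motor, at −1.10 ± 0.40 (SE, n = 3 a zone, limma adjusted p = 0.0732). DNAJC19 was called lower with the pig as a block (limma adjusted p = 0.0162), with libraries scaled to the same median (0.0282) and after quantile normalization (0.038). HSF1 stood at 1.18, 0.991 and 1.28 RPKM in ischemic, 0.809, 0.919 and 1.13 RPKM in border zone and 1.37, 0.864 and 0.726 RPKM in healthy libraries. These overlapped, with a log2 fold change of 0.24 ± 0.27 for ischemic against healthy (SE, n = 3 a zone, limma adjusted p = 0.531). UBB, a polyubiquitin gene, had a log2 fold change of 0.75 ± 0.30 (SE, n = 3 a zone, limma adjusted p = 0.1). In border zone against healthy, limma called 0 of the 27 and gave 2 of them an unadjusted p under 0.05, and limma-voom called 0 too.

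The heat-inducible HSP70 gene listed as HSP70.2, its relatives HSPA1L and HSPA6, and the small heat shock gene HSPB7 are listed at 0 in every library. All 548 positions on unplaced scaffolds are at 0 in all 9 libraries, these included, against 3855 of 4334 positions on chromosomes that hold a read in some library. The level of these genes can therefore not be read from the table.

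**Figure D4:**
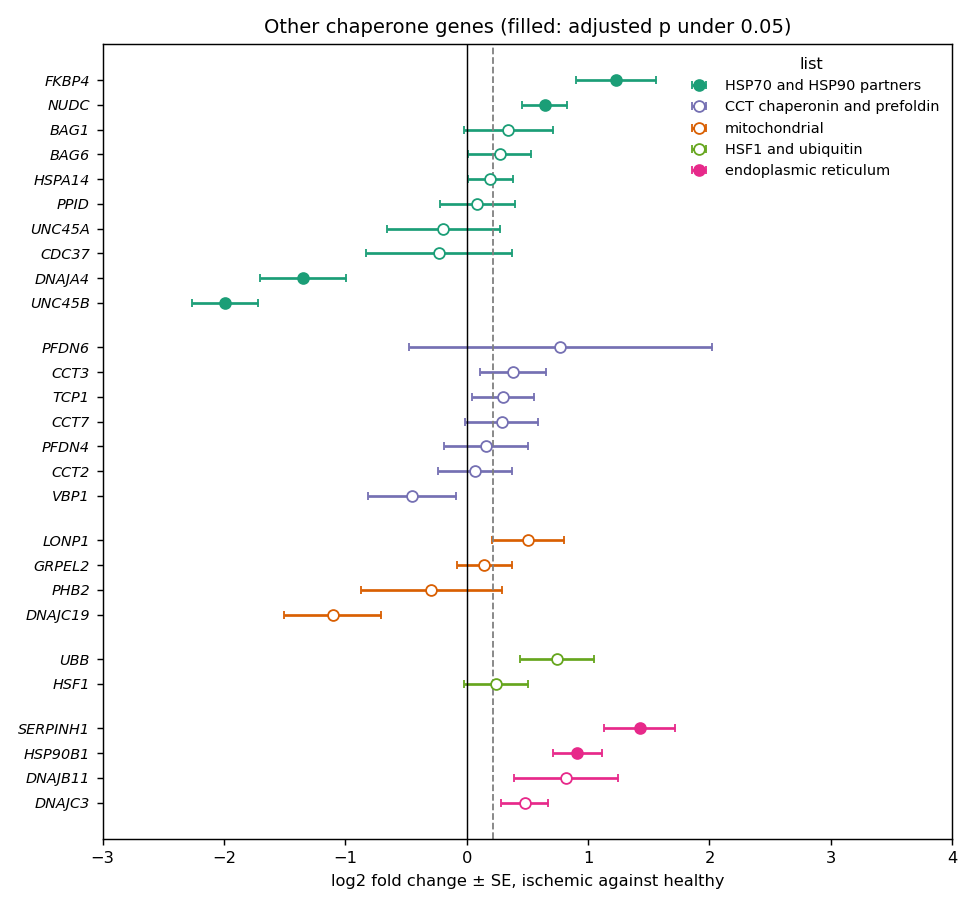
Fitted log2 fold change ± SE (horizontal axis) for ischemic against healthy of 27 other chaperone genes in 5 lists, marked by colour. Filled points have an adjusted p under 0.05, 4 higher and 2 lower, and the dashed line marks the median of 2384 positions.

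The genes whose levels across the 9 libraries were most like the mean log2 level of the 10 were ranked by Pearson's r among 684 genes with a mean of at least 2 RPKM, whose median r was 0.34. RBM25, a splicing regulator, came first with r = 0.94, at means of 3.73 RPKM in ischemic, 2.27 RPKM in border zone and 1.78 RPKM in healthy libraries. EEF1A1, a translation elongation factor, had r = 0.92, at means of 87.7 RPKM in ischemic, 42.2 RPKM in border zone and 26.3 RPKM in healthy libraries. COL1A2, RPL6 and SOD2 followed at r = 0.91, 0.90 and 0.90. The 9 points share zones, pigs and library depth, so these values only describe likeness. The mean of the 10 also includes HSPE1, which had 0 reads in the ischemic library of pig 3. In that library the mean log2 level was 2.46, against 3.13 and 3.26 in ischemic libraries of pigs 1 and 2. It was 2.51 in the border zone library of pig 3. The part of the HSPE1 value in the ranking was not tested.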

How the data were processed

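GRO-seq reads were aligned to susScr3 with Bowtie, per the submitters' processing notes. The deposited table holds RPKM, made by the authors from reads over the span of 4882 transcript positions, with span and exon lengths, per the file headers. Counting program, strand setting, duplicate handling and the treatment of multiply aligned reads: not given in the sources used here. Genes with near-identical copies or pseudogenes, such as HSPA8, HSPB1, HSP90AA1, HSPD1 and HSPE1, and genes that overlap others are uncertain for that reason.

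Dividing out span and depth recovered integer read counts (tolerance 0.01 reads) for 100% of nonzero values, and so the library totals. Of read counts from 1 to 30, 32.8 to 53.2% per library were divisible by 3, so reads may not be independent molecules, and floors cover counting error only. limma 3.58.1 in R 4.3.3 (eBayes, trend and robust) was fitted to log2(RPKM + 0.1) for all 9 libraries, without a block for the pig. Python 3.11.15 with pandas 2.3.3, numpy 2.4.6, scipy 1.17.1 and matplotlib 3.10.9 prepared tables, ratio tests and plots. The labels give the pig of each library, which pairs the zones. Deviations from the zone means correlated at −0.04 to 0.18 over 9 same-pig pairs of libraries and at −0.16 to 0.08 over 18 others. The script was tested on simulated data.

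Other settings were another pseudocount, filter, scaling, position per gene, limma-voom on the recovered whole reads, the pig as a block, only the 2 zones compared, and each library left out. For a gene with no other position, the setting of another position per gene repeats the main fit. A Sscrofa11.1 RefSeq table named 4793 positions and gave no coordinates. All 10 genes and every network gene that was called or lay on an unplaced scaffold could be named, with the 5 genes most like the 10. The 10 genes and the lists were chosen with earlier results of these data known. Where a gene of the lists is not in the table it was not analysed here.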

Additional observations from a re-analysis of the deposited data

How the results depend on the processing

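The 10 genes called higher for ischemic against healthy numbered 5 as reported and with the replicate block (the pig), which lost HSPD1 and gained HSP90AA1. They numbered 2 without the filter, 2 with libraries scaled to the same median, 0 after quantile normalization, 2 with only the compared zones, 7 in limma-voom, which added HSP90AA1 and HSPA8, and 2 to 5 when a library was left out. limma-voom called 1 in border zone against healthy and 1 in ischemic against border zone. A filter at 2 RPKM left FKBP4, NUDC and UNC45B untested, at means of 1.93, 1.43 and 1.00 RPKM. With it, 2 network genes were called higher and 1 lower for ischemic against healthy. Leaving out a library left 1 to 4 of the network genes higher and 1 to 2 lower. For ischemic against border zone, limma-voom called 1 higher, SERPINH1. The call of UNC45B there was lost (0 lower) with a pseudocount of 0.5, no filter, scaling to the same median and quantile normalization. It was also lost with the replicate block and only the compared zones, and the count stood at 0 to 1 when a library was left out. The block also called DNAJC19 lower for ischemic against healthy, which made 3 lower network genes, and changed no other call of a network gene in that comparison. The cause of the calls lost among tested genes was not tested.

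The fitted log2 differences of the genes that changed sign were small or rested on 1 library, except for CHORDC1 and HSPB1. Those of CHORDC1 came from its other position, and those of HSPB1 reached −0.42 and −0.24 after quantile normalization of all libraries. CHORDC1 stood at 1.23, 0.98 and 0.25 at its position of highest mean, for ischemic against healthy, for border zone against healthy and for ischemic against border zone. Scaling to the same median gave, for border zone against healthy, −0.034 for HSP90AA1, −0.064 for HSP90AB1, −0.097 for HSPA8, −0.15 for HSPB1 and −0.030 for HSPD1. Quantile normalization gave −0.030 for HSP90AB1, −0.060 for HSPA8 and −0.18 for HSPB1 there, and −0.24 for HSPB1 in ischemic against border zone. For HSPB1 in ischemic against healthy scaling to the same median gave −0.021 and quantile normalization −0.42. limma-voom gave −0.018 for HSPB1 and −0.029 for HSPE1 in border zone against healthy. With a library left out, border zone against healthy ranged from −0.11 to 0.78 for HSP90AA1, −0.091 to 0.69 for HSP90AB1, −0.28 to 0.33 for HSPB1 and −0.091 to 0.62 for HSPE1. HSPB1 ranged from −0.19 to 0.40 in ischemic against healthy and −0.14 to 0.26 in ischemic against border zone, and HSPE1 from −2.05 to 1.24 and −2.34 to 0.95.

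Ratios also changed sign when a library was left out. For ischemic against healthy, for border zone against healthy and for ischemic against border zone, HSP90AA1 to HSP90AB1 ranged from −0.11 to 0.12, −0.19 to 0.27 and −0.26 to 0.20, and HSPD1 to HSPE1 from −1.11 to 0.40, −0.62 to 0.38 and −1.04 to 0.47. HSPH1 to HSPA8 ranged from −0.14 to 0.66 for ischemic against border zone. DNAJB1 to DNAJA1 ranged from −0.18 to 0.58 for border zone against healthy and −0.16 to 0.62 for ischemic against border zone. Of the results for single genes under other settings, 495 kept direction and side of the threshold, 35 lost the call, 7 gained it and 27 changed sign. The 495 include repeats of the main fit, from the position setting in genes with no other position. Depth limits HSPE1, HSPB1 and CHORDC1 most, with 0 to 23, 17 to 35 and 15 to 56 reads in ischemic libraries.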

Other observations

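Differences between pigs were as wide as those between zones for some pairs of genes. The log2 ratio of DNAJB1 to DNAJA1 was highest in pig 3 in all zones, at 3.10 in ischemic, 2.91 in border zone and 2.61 in healthy tissue, against 1.91, 1.76 and 1.42 in the same zones of pig 1. The log2 ratio of HSP90AA1 to HSP90AB1 was lowest in pig 3 in all zones, at 0.35 in ischemic, 0.10 in border zone and 0.30 in healthy tissue. These are values of single animals, noticed in the data, and were not tested.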
